A study of Homo sapiens with 4 samples.

Results

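The genes described here are 10 known targets and feedback genes of Wnt and beta-catenin signalling in liver tumours, namely AXIN2, LGR5, NKD1, TBX3, GLUL, RNF43, ZNRF3, SP5, LEF1 and DKK1. They were read from every probe, other than control spots, with one of these symbols as its gene name on the array, which gave 13 of 42405 probes and 10 of 34809 gene names. The study asked which genes respond when UNC50, a membrane protein of the Golgi apparatus, is depleted in Hep3B, a human hepatocellular carcinoma cell line. RNA was hybridised to 4 single-colour Agilent arrays, 1 for each cell population. The control population carried the mock hairpin plasmid (shR-MOCK), and the knockdown populations carried shR-467, shR-554 or shR-749, hairpins aimed at UNC50 mRNA from base 467, 554 or 749. All 4 were grown as Hep3B cultures and selected with puromycin at 1 ug/ml, and no untransfected or unselected cells were compared here. Each population had 1 array, the hairpins were different reagents, and nothing in the labels says whether the cells were a clone or that the cultures were independent, so the spread given below is that between 3 hairpins and may be partly technical.

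Wnt ligands bind Frizzled and LRP receptors and stop the destruction complex from marking beta-catenin for degradation, after which beta-catenin enters the nucleus and drives transcription together with TCF and LEF factors. Many of the genes switched on in this way encode brakes on the same pathway, so that their mRNAs serve as readouts of its activity. In the liver the pathway is known for setting the gene programme of hepatocytes around the central vein, and it is activated by mutation in a share of hepatocellular carcinomas.

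UNC50 itself was checked first. Its probe (A_23_P252700, chromosome 2, 99227237 to 99227296 on hg19) gave a processed signal of 5010 on the mock array, and 1050, 853 and 947 on the arrays of shR-467, shR-554 and shR-749. In scaled terms the hairpins left 24.0%, 13.7% and 18.7% of the mock level, so the targeted mRNA was low in each population labelled as a knockdown. The share of spots well above background ran from 67.6% to 73.6%. The 4 arrays shared 1 slide and 1 scan, so no batch of that kind separated the groups. Hepatoma markers such as ALB and AFP were well above background on every array for 9 of 9 genes, with summed signals of 489352 to 724735, and 4 of their 11 probes were at least 1.5-fold higher on average, beside 2.25% of all kept probes. The summed signals were 200 to 324 for fibroblast markers, 327 to 423 for endothelial markers and 1915 to 2929 for leucocyte markers, and most of the last came from CD14 (1750 to 2743). Of 3 kept fibroblast probes, 1 was at least 1.5-fold higher on average, for LUM by 0.67 on the log2 scale, beside the same 2.25%. The others, for DCN and COL1A2, were at -0.46 and -0.08. Of 5 kept endothelial probes, 1 was lower by that much, beside 7.35% of all kept probes. It was a PECAM1 probe at -0.70, dim on some arrays. The other PECAM1 probes were at 0.21 and 0.24, CDH5 was at 0.51 and VWF at -0.26. The part of these markers in the differences below was not tested.

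All 13 member probes passed the filter on dim probes, and all 13 were well above background on the 4 arrays. Differences are given as log2 of the scaled signal with a hairpin minus that with shR-MOCK, so that 0.58 stands for 1.5-fold, the threshold in the study's methods. None of the members reached it on average: 0 of 13 probes did so, beside 9.60% of the 30274 probes kept on the array (2.25% higher and 7.35% lower). With every hairpin at 1.5-fold in the same direction the count was again 0 of 13, beside 1.78% of all kept probes. The lowest and highest mean differences among members were -0.44 for LGR5 and 0.40 for 1 of 2 AXIN2 probes. The means lay below the mock level for 11 of 13 probes and above it for 2, and their median was -0.22, beside -0.03 over all kept probes. All 3 hairpins lay on 1 side of the mock array for 4 probes, below it for 3 (RNF43, 1 of TBX3 and 1 of ZNRF3, beside 20.6% of kept probes) and above it for 1 (AXIN2, beside 17.7%), and 38.3% of kept probes did so in either direction. In bulk RNA, fewer cells expressing a gene and less of its RNA per cell cannot be told apart.

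Hairpin by hairpin, 6 of the 13 probes, each of a different gene, passed 1.5-fold with at least 1 hairpin, beside 33.9% of kept probes. With shR-467, 2 probes were higher by that much, for AXIN2 and DKK1, beside 6.91% of kept probes that were higher. With shR-554, 3 probes were lower, for LGR5, NKD1 and ZNRF3, beside 15.2% of kept probes that were lower. With shR-749, GLUL was higher, beside 5.36%, and LGR5, NKD1 and DKK1 were lower, beside 10.1%. Only LGR5 and NKD1 passed in the same direction with 2 hairpins. Of the values that did not pass, the nearest to the threshold was SP5 with shR-749, at 66.9% of the mock level, and of those that passed, the nearest were GLUL with shR-749 and DKK1 with shR-467, both at 155% of it.

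**Figure D1:**
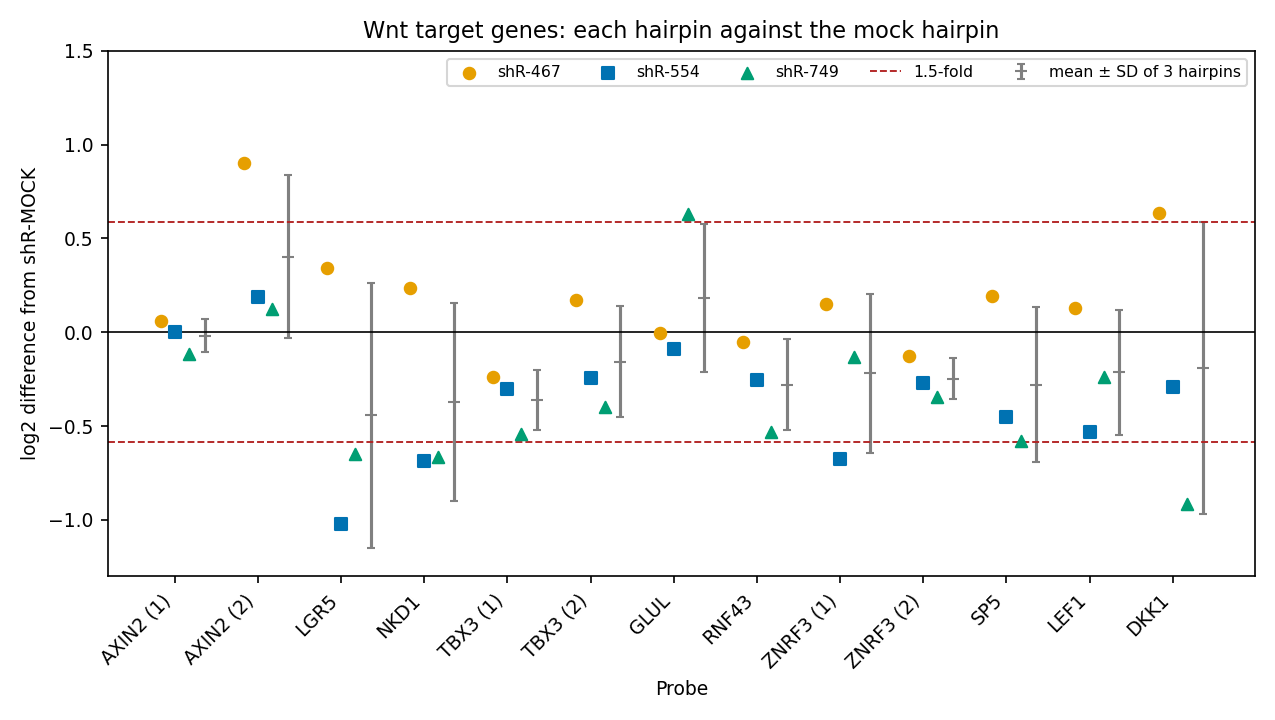
Log2 difference from shR-MOCK (vertical axis) of each member probe (horizontal axis) with each of the 3 hairpins (symbols), and their mean ± SD (grey bars); (1) and (2) mark the probes of a gene that has 2, AXIN2 (2) being A_24_P298027 and ZNRF3 (2) A_24_P162373; dashed lines mark 1.5-fold. The means run from -0.44 to 0.40, all inside the dashed lines, while single hairpins reach 0.90 for AXIN2 and -1.02 for LGR5.

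With limma, fitted across all 30274 kept probes with the lone mock array assumed to vary like the hairpins, 0 probes passed an adjusted p of 0.05, and 451 passed an unadjusted p of 0.05, none of them a member. The smallest unadjusted p of a member in limma was 0.229 and each member's adjusted p was 1.00. An exact permutation test of 3 arrays against 1 cannot go below 0.25. The limma 95% intervals held 0 for 13 of 13 members, and 0 of these intervals lay wholly within 1.5-fold of the mock level. Within 2-fold lay 4 intervals, those of AXIN2 A_23_P148015, GLUL, RNF43 and ZNRF3 A_24_P162373. For the other 9 probes, a mean difference of 2-fold was still inside the interval. UNC50, left at 24.0%, 13.7% and 18.7% of the mock level, was itself not called after adjustment. The lack of calls therefore cannot decide whether the members changed.

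Among the brakes that act inside the cell, AXIN2 encodes a scaffold of the destruction complex and is among the most widely used readouts of beta-catenin activity. Its 2 probes lie on chromosome 17, at 63525389 to 63525448 (A_23_P148015) and 63554388 to 63554447 (A_24_P298027) on hg19, in the transcript of this gene. Their opening 30 bases, 5' to 3', are shown because the probes, at separate positions, gave different values.
AXIN2 A_23_P148015: ttttgtcttaaaggtcttgagggttgacca
AXIN2 A_24_P298027: ttcctggagagggagaaatgcgtggatacc
For A_23_P148015 the processed signals were 124.9 on the mock array, 113.5 with shR-467, 155.0 under shR-554 and 116.4 under shR-749. After scaling, the mock level lay among those of the hairpins, and the mean difference was -0.02 ± 0.09 (SD, n = 3), with a limma 95% interval from -0.73 to 0.69. The signals of A_24_P298027 were 33.9, 55.3, 47.9 and 37.2 in the same order. All 3 hairpins lay above the mock array here, by 0.90 with shR-467, 0.19 under shR-554 and 0.12 under shR-749, for a mean of 0.40 ± 0.43. This probe was dim, its lowest reading being 1.49 times the detection limit, taken as the dimmest spot called well above background. The readings differed most with shR-467, and the mean gap between the probes was -0.42 ± 0.37.

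NKD1 encodes Naked cuticle homolog 1, which binds Dishevelled and damps the signal. Its probe (chromosome 16, 50667885 to 50667944) gave signals of 206 on the mock array, 212 with shR-467, 159 under shR-554 and 131 under shR-749. The level was lower with shR-554 and shR-749, by 0.69 and 0.67 on the log2 scale, and higher with shR-467, by 0.24, so the mock array lay between the hairpins. The mean was -0.37 ± 0.53, with an interval from -1.38 to 0.64.

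At the cell surface, RNF43 and ZNRF3 encode ubiquitin ligases that remove Frizzled receptors, and LGR5 encodes a receptor for R-spondins, which hold these ligases back. The RNF43 probe (chromosome 17, 56431063 to 56431122) gave 8570 on the mock array, 7230 with shR-467, 8910 under shR-554 and 5980 under shR-749. After scaling, all 3 hairpins lay below the mock array, by 0.05, 0.26 and 0.53, and the mean of -0.28 ± 0.24 had an interval from -0.82 to 0.26. For the ZNRF3 probe A_24_P162373 the signals were 7130, 5710, 7330 and 5670 in the same order. Again each hairpin lay below the mock array, at 91.7%, 82.8% and 78.8% of it, and the mean was -0.25 ± 0.11 with an interval from -0.69 to 0.20. The other ZNRF3 probe, A_23_P427502, gave 847, 822, 657 and 780, and here shR-467 lay above the mock array and the others below it, with shR-554 lowest at 62.5%. The 2 ZNRF3 probes lie on chromosome 22, at 29449612 to 29449671 (A_24_P162373) and 29452861 to 29452920 (A_23_P427502), and disagreed on the sign with shR-467, so a change with that hairpin cannot be given for the gene.

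LGR5 (chromosome 12, 71978325 to 71978384) had the lowest mean among the members.
LGR5 A_23_P98974: acacccaagcttgatgtcaattaactctga
These are the opening 30 bases of its probe. It was printed in 2 spots, whose signals averaged 93.7 on the mock array, 103.8 with shR-467, 57.3 under shR-554 and 60.3 under shR-749. The gene was at 49.3% of the mock level with shR-554 and at 63.8% with shR-749, and at 127% with shR-467. The mean of -0.44 ± 0.71 had a limma interval from -1.77 to 0.89. On the mock array the 2 spots read 71.9 and 122, a gap of 0.76 on the log2 scale, wider than the difference between shR-749 and the mock array.

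Among the transcription factors, SP5 encodes a zinc finger factor that beta-catenin switches on directly in many cell types. Its upstream sequence is shown because, of the members with an entry in the RefSeq promoter table (build GRCh38.p14), it held the most copies of the core letters that TCF and LEF factors recognise. The run covers 250 bases before the annotated start, chr2:170715087-170715336 on the + strand, and capitals mark these letters on either strand: CTTTGAT (held by 2.26% of promoters in the table), CTTTGAA (held by 3.80%), CTTTGTT (held by 4.50%) and CTTTGTA (held by 2.35%). No match overlapped another here.
SP5: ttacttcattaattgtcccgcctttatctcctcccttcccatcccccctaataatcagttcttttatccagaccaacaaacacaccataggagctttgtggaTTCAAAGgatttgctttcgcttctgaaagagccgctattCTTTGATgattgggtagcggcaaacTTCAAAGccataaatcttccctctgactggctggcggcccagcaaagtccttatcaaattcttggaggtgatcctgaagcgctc
It holds 3 matches, with first bases 148, 109 and 84 bases before the start. A window of this length held at least 1 match in 12.0% of the 35116 promoters of the table, and at least 3 in 0.122%. A match is a description of the letters and not evidence of binding. The SP5 probe (chromosome 2, 171574290 to 171574349 on hg19) gave signals of 3380 on the mock array, 3370 with shR-467, 3070 under shR-554 and 2280 under shR-749. The scaled level was 114% of the mock level with shR-467 and 73.2% and 66.9% with the others, so the mock array again lay between the hairpins. The mean was -0.28 ± 0.41, with an interval from -1.04 to 0.48.

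LEF1 encodes a partner of beta-catenin on DNA and is itself a target of the pathway. Its signals were 60.3 on the mock array, 57.6 with shR-467, 51.7 under shR-554 and 51.6 under shR-749, close to background on every array. The differences of 0.13, -0.53 and -0.24 placed the mock level between shR-467 and the others. TBX3 encodes a T-box repressor found at high levels in liver tumours with active beta-catenin, and it has 2 probes on chromosome 12. At 115109654 to 115109713, A_23_P13772 gave 143, 106, 144 and 99.2 in the order of the arrays above, and every hairpin lay below the mock array, by 0.24, 0.30 and 0.54, with a mean of -0.36 ± 0.16. At 115108840 to 115108899, A_23_P383819 gave 32.9, 32.4, 34.6 and 25.2, with a mean of -0.16 ± 0.30 and shR-467 above the mock array. A_23_P383819 was read at the detection limit, its lowest reading being 1.01 times it, on the shR-749 array, where only 1 of its 2 spots passed.

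DKK1 encodes a secreted inhibitor that takes LRP co-receptors out of play. It was measured far above background on every array and spread more widely between the hairpins than any other member probe.
DKK1 A_23_P24129: aataacaccttccaaaaacctggagtgtaa
These 30 bases open its probe (chromosome 10, 54076687 to 54076746 on hg19). Its processed signals were 37046 on the mock array, 50185 with shR-467, 37589 under shR-554 and 19849.9 under shR-749. The gene was at 155% of the mock level with shR-467, at 81.8% with shR-554 and at 53.1% with shR-749, so the hairpins lay on both sides of the mock array and 2.92-fold apart at the extremes. The duplicate spots read 36500 and 37600 on the mock array, 46900 and 53700 with shR-467, 36700 and 38500 with shR-554, and 19800 and 19900 with shR-749, so no spot of one hairpin overlapped those of another. The range of 1.55 on the log2 scale was matched or exceeded by 2.68% of the 26057 probes that were bright enough on all 4 arrays, and the next widest, that of LGR5, was 1.36. The DKK1 mean was -0.19 ± 0.78, with a limma interval from -1.39 to 1.01. Each hairpin had 1 array, so hairpin and array cannot be told apart.

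The upstream sequence of DKK1, chr10:52314031-52314280 on the + strand of GRCh38.p14, is shown with the same letters in capitals since its values were the most spread.
DKK1: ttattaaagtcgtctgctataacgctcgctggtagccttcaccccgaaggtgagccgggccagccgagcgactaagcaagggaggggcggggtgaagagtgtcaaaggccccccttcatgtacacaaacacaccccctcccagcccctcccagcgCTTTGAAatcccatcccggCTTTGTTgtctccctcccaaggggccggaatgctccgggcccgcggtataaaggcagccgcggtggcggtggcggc
It holds 2 matches, with first bases 95 and 76 bases before the start, and at least 2 were present in 1.21% of promoters. Of the 10 genes, 5 matched an entry, with 7 promoters in all, and no match lay in the windows of GLUL, LEF1 and RNF43. AXIN2, LGR5, NKD1, TBX3 and ZNRF3 had no entry. DKK1 and SP5, the genes with matches, were both highest with shR-467 and lowest with shR-749. RNF43, without a match, had the same order. So did both AXIN2 probes, both TBX3 probes and ZNRF3 A_24_P162373, whose genes had no entry. The order was therefore not particular to the genes with matches, and shR-467 was the highest hairpin in 42.0% of all kept probes.

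**Figure D2:**
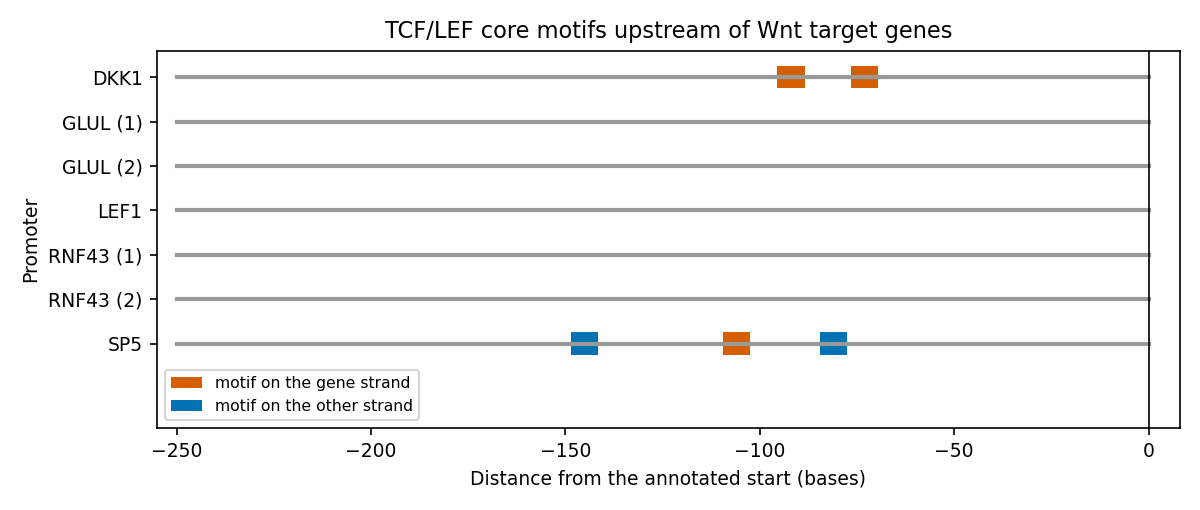
Positions of the TCF and LEF core letters (boxes, coloured by strand) in the 250 bases before the annotated start of the 7 promoters with an entry, with the distance from the start in bases on the horizontal axis. SP5 holds 3 matches and DKK1 holds 2, and the other promoters hold none.

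GLUL encodes glutamine synthetase, the hallmark of hepatocytes around the central vein and of liver tumours with mutated beta-catenin. Its probe (chromosome 1, 182352737 to 182352796) gave 3519 on the mock array, 3069 with shR-467, 4110 under shR-554 and 5504 under shR-749. Among the members, only GLUL had its highest hairpin in shR-749, although AXIN2 A_24_P298027 also lay above the mock level with it, at 109%. GLUL was at 99.9% of the mock level with shR-467, at 94.1% with shR-554, and at 155% with shR-749. With that hairpin DKK1, NKD1, LGR5 and SP5 were low. The GLUL mean of 0.18 ± 0.39 had an interval from -0.54 to 0.91. Other genes of its zone, from a list of 11 perivenous genes, lay on both sides of the mock level. Of 15 kept probes, 2 were at least 1.5-fold higher on average, for the drug-metabolising enzymes CYP1A2 (0.87 ± 0.95) and CYP2E1 (0.63 ± 0.80), beside 2.25% of all kept probes. Neither passed without shR-749, at 0.42 and 0.27, and CYP2E1 was at 0.56 without shR-467, at 0.29 with normexp and close to the detection limit with shR-554. Another 2 were lower, beside 7.35% of kept probes: AQP9, a water and glycerol channel that was dim on some arrays, and SLC13A3, a dicarboxylate transporter that was not well above background with shR-749. SLC13A3 passed with every hairpin, at signals of 126, 38.1, 45.3 and 13.2 and a mean of -2.19 ± 0.94, but its mean was -0.99 with normexp and -1.89 with low signals raised to the detection limit, and its other kept probe averaged -0.29 ± 0.08. In the periportal list, 1 of 12 kept probes was higher and 2 were lower on average, beside the same 2.25% and 7.35%. CPS1, which opens the urea cycle, was at 0.65 ± 0.30, but at 0.48 without shR-749, and ARG1, which closes it and gave both lower probes, was at -1.03 ± 0.64 on A_33_P3319967. OAT, a perivenous enzyme of ornithine use, was at 0.39 ± 0.20.

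**Figure D3:**
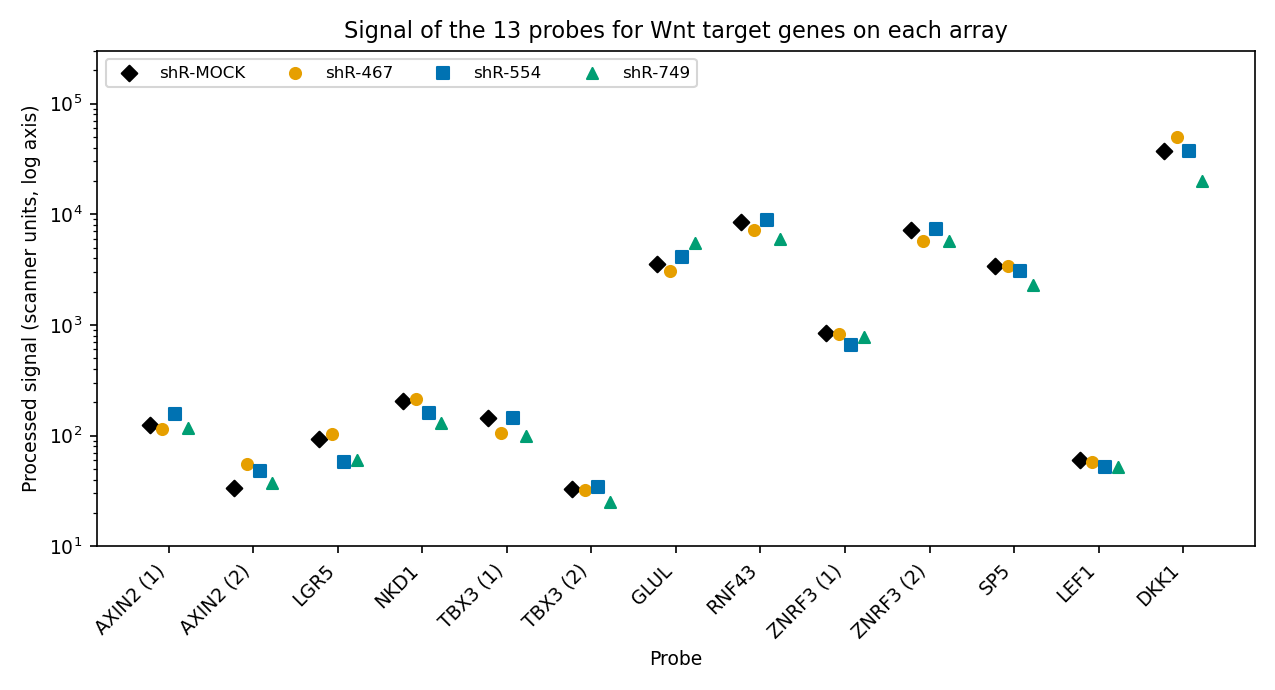
Processed signal (vertical log axis, scanner units, before scaling) of each member probe (horizontal axis) on the 4 arrays (symbols), as the average of its spots; (1) and (2) mark the probes of a gene that has 2. Levels of different probes are not comparable; within a probe, DKK1 runs from 19849.9 with shR-749 to 50185 with shR-467.

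The order of the hairpins was shared by most members, a pattern noticed after the values were seen. Among the 3 hairpins, shR-467 gave the highest level in 12 of 13 probes, all but GLUL, beside 42.0% of all kept probes. In 8 of 13 it lay above the mock array while shR-554 and shR-749 both lay below it, beside 17.1% of kept probes. Among the pathway lists described below, these positions around the mock array held for 6 of 9 kept probes of the secreted inhibitor list and 4 of 10 for ligands. They held for 2 of 14 for receptors, 3 of 28 for the destruction complex, 1 of 22 for TCF factors and 3 of 22 for other Wnt targets. The members' medians were 0.15 with shR-467, -0.29 under shR-554 and -0.40 under shR-749, and those of all kept probes were 0.03, -0.03 and -0.05. The pattern moved with the scaling: after quantile normalization shR-467 was highest in 9 of 13 members beside 35.5% of probes, and after median scaling in 9 of 13 beside 29.6%. It also moved with brightness over the whole array, since shR-467 was highest in 52.1% of the 6515 dimmest probes and in 36.9% of the 6514 brightest, and 4 members lay among the former and 5 among the latter. The study's text names only shR-554 and shR-749 as UNC50 hairpins, but the study also lists array values for shR-467. With shR-554 and shR-749 alone, 3 of 13 members reached 1.5-fold on average (LGR5 at -0.83, NKD1 at -0.68 and DKK1 at -0.60), beside 14.2% of kept probes. With each of that pair it was LGR5 and NKD1, 2 of 13, beside 6.42%. These shares are descriptions of probes that share the mock array and carry no test.

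The rest of the pathway was read from 6 lists of 112 genes, with 146 probes, of which 103 were kept. On average 2 of the 103 were at least 1.5-fold higher and 8 were lower, which is 9.71% beside the 9.60% of all kept probes, and their median was -0.04. With every hairpin, 1 was higher and 3 were lower (3.88%, beside 1.78%). The 4 were WNT11, TCF7L2, CCND1 and MMP7, all well above background on each array. With normexp background correction 3 probes of these lists passed with every hairpin, and the TCF7L2 probe, with a mean of -0.44, was not among them.

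Among ligands and the machinery of their release, WNT11, a ligand best known for signalling without beta-catenin, was higher with every hairpin. Its signals were 52.4 on the mock array, 135.6 with shR-467, 227.5 under shR-554 and 168.0 under shR-749, and the differences of 1.57, 1.81 and 1.67 gave a mean of 1.68 ± 0.12. The mock array lay clear of all 3 hairpins, although the fold was smaller, 0.96 on the log2 scale, after normexp background correction. Among 10 kept probes of this list, 1 other, for WNT7B, was lower on average, beside 7.35% of all kept probes, but dim on some arrays. WNT3A at -0.35, WNT10A at -0.35 and WNT3 at 0.33 did not reach the threshold.

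Receptors and R-spondins gave 0 higher and 2 lower of 14 kept probes, beside 2.25% and 7.35% of all kept probes. Both of the latter (ROR2 and ROR1) were dim on some arrays. Of the Frizzled receptors, FZD7 was at -0.50, FZD4 at 0.43 and FZD2 at -0.31. The list of secreted inhibitors, the class of DKK1, also holds KREMEN1 and KREMEN2, which are co-receptors and not secreted. It gave 0 higher and 2 lower of 9 kept probes, beside the same 2.25% and 7.35%. The 2 were for SFRP2 and KREMEN1, both dim on some arrays. The other kept KREMEN1 probes, dim on no array, were at 0.05 and -0.17. The median of the list was -0.34, with 5 of its 9 kept probes well above background on all 4 arrays. KREMEN2, a co-receptor of Dickkopf proteins, was at -0.36 ± 0.06 and SOSTDC1 at -0.34. In the destruction complex and Dishevelled list, 1 of 28 kept probes was higher and 0 were lower, beside the same 2.25% and 7.35%. That probe was APC2's, at 0.74 ± 0.55, but 0.38 with normexp and 0.44 without shR-554, while APC was at 0.26 on 1 probe and -0.03 on another and TNKS, a tankyrase that marks Axin for removal, at 0.27.

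CTNNB1, which encodes beta-catenin, gave signals of 7682 on the mock array, 7561 with shR-467, 9235 under shR-554 and 6828 under shR-749. The scaled differences of 0.17, -0.05 and -0.18 averaged -0.02 ± 0.18, and a further probe averaged -0.16 ± 0.31. The arrays measured mRNA, whereas the amount of beta-catenin is known to be set mainly by degradation of the protein. Of 22 kept probes for TCF factors and nuclear partners, 1 was lower on average, beside 7.35% of all kept probes. It was a TCF7L2 probe at 143, 81.0, 106 and 87.7 (mean -0.70 ± 0.06). The other 2 TCF7L2 probes stood at -0.29 ± 0.23 and 0.22 ± 0.08, so the probes of this gene disagree. CTNNBIP1, which blocks beta-catenin from TCF factors, was at -0.53 on 1 probe and -0.15 on another. CREBBP was at 0.37, and BCL9L was at -0.27 on 1 probe and 0.01 on another.

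Of 22 kept probes for other Wnt targets, 0 were higher and 2 were lower, beside 2.25% and 7.35% of all kept probes. These 2 were also lower with every hairpin, beside 1.23%. CCND1, which encodes cyclin D1, gave 465.9 on the mock array, 216.7 with shR-467, 180.1 under shR-554 and 187.0 under shR-749 (mean -1.31 ± 0.39). MMP7, which encodes matrilysin, gave 266.9, 93.0, 123.5 and 122.5 (mean -1.29 ± 0.15, and -0.93 with normexp). From the authors' processed values the falls were larger, with means of -1.53 for CCND1 and -1.43 for MMP7. In both, all 3 hairpins lay below the mock array. The same held for 3 of 13 member probes (RNF43, TBX3 A_23_P13772 and ZNRF3 A_24_P162373), beside 20.6% of kept probes. For LGR5, NKD1, SP5, LEF1, DKK1, both AXIN2 probes, TBX3 A_23_P383819 and ZNRF3 A_23_P427502, shR-467 lay above the mock array. Signals other than Wnt are known to control CCND1 and MMP7, and the study names both from these arrays, so the array values are not independent evidence on the pathway. The study also reports real-time PCR of both genes in knockdown and overexpression cells and western blots of cyclin D1, which were not analysed here. SOX9 at -0.53, CDX2 at -0.46 and VEGFA at -0.44, with another VEGFA probe at -0.12, stayed under the threshold.

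**Figure D4:**
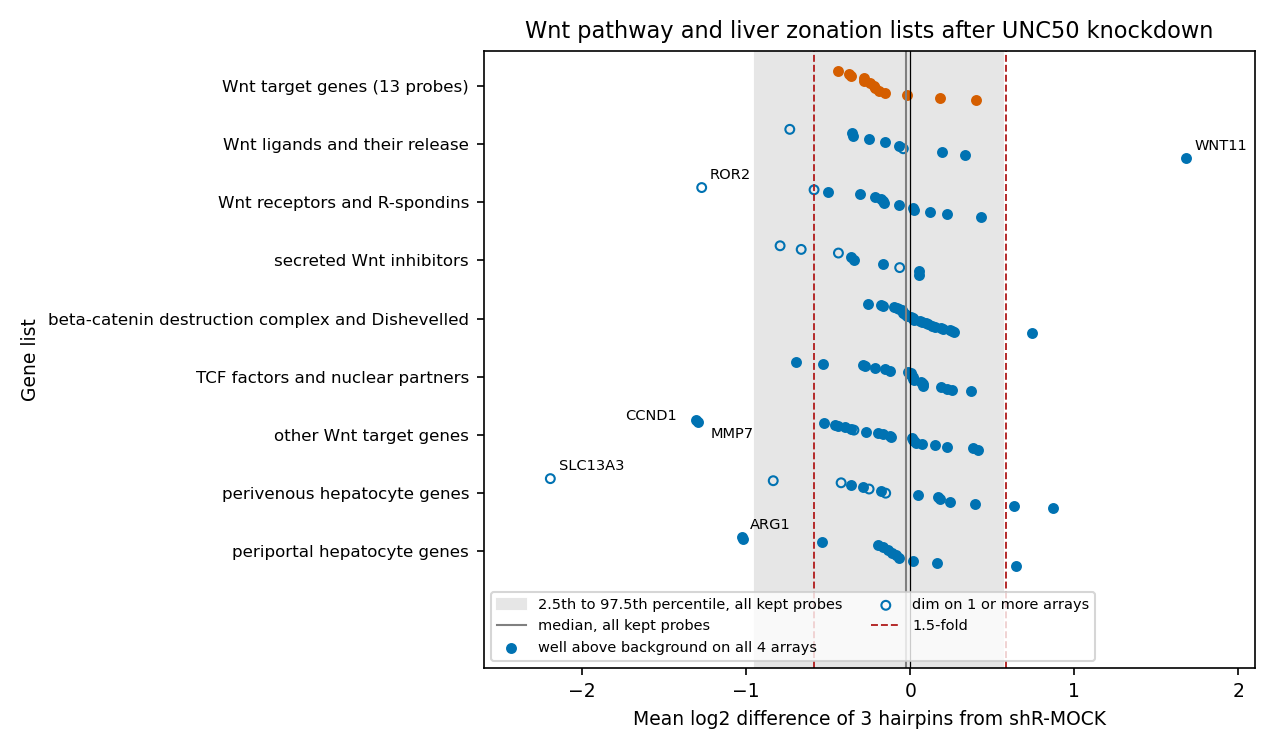
Mean log2 difference of the 3 hairpins from shR-MOCK (horizontal axis) for every kept probe of the 13 members and of each pathway and zonation list (rows); open circles are dim on 1 or more arrays, the grey band spans the central 95% of all kept probes and dashed lines mark 1.5-fold. No member lies outside the dashed lines, while WNT11 at 1.68, CCND1 at -1.31, MMP7 at -1.29 and SLC13A3 at -2.19 are among the probes outside both the lines and the band.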

How the data were processed

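RNA of 4 Hep3B populations was read on 1 Agilent array each. The authors deposited Feature Extraction output (version 10.7.1.1) with the intensity of every spot, raw and background-subtracted, and a table of processed log2 values whose normalization is not given in the sources used here; for the members it differed from quantile-normalized values computed here by at most 0.0066, and 5 of all probes differed by over 0.1, among them CCND1 (0.494) and MMP7 (0.321).

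The main value was log2 of the processed signal minus the array's 75th percentile (978 to 1390) over 58717 non-control spots. Spots marked as outliers (254 to 466 an array) were left out and a probe's spots averaged on the log2 scale; 0 spots were saturated. A probe counted as well above background where at least a share of 0.5 of its spots was, and was kept where this held on the mock array or on all 3 hairpin arrays (30274 probes; 26057 on all 4). Signal over background and the number of arrays limit the precision. The grouping followed the labels. Means and SDs are over 3 hairpins, and limma 3.58.1 (R 4.3.3, lmFit and eBayes with a trend, Benjamini-Hochberg adjustment, 2 residual degrees of freedom, prior 4.88) tested all kept probes. The steps were tested on simulated data, but only for changes larger than those of the members and with the mock array given the hairpins' spread. Other steps ran in Python 3.11.15 (numpy 2.4.6, pandas 2.3.3, scipy 1.17.1, matplotlib 3.10.9).

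Every member probe, UNC50 and CTNNB1 were named, with, from each list, genes at 1.5-fold with every hairpin and up to 3 more with the largest mean difference among probes that were dim on no array, and the 3 probes nearest to the member with the largest mean difference; WNT7B, ROR1, ROR2, SFRP2, AQP9 and the dim KREMEN1 probe were named after their values were seen. Members, lists and alternatives were chosen with earlier results of these data known. As alternatives, values were also made with quantile normalization, with median scaling, by normexp (offset 50) with quantile normalization, from the authors' table, with low signals raised, with other filters on dim probes, with marked spots kept and with 1 probe a gene, and results were recomputed at 2-fold, by limma without a trend, by the methods' t-test and with each hairpin left out. The order of the hairpins and the values for shR-554 and shR-749 alone were added after seeing the data. Positions are the array's, on hg19, and all 13 member transcripts matched the same symbol in RefSeq; exon and UTR annotation was not used here, so probe sequences are given in part. Some genes that the naming rule covers are not reported here. Assays other than the arrays were not analysed here.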

Additional observations from a re-analysis of the deposited data

How the results depend on the processing

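Of 153 recomputed mean differences of member probes, 5 took the other sign and 3 passed 1.5-fold; the filters, raised low signals and marked spots left the member values as they were. The sign turned for AXIN2 A_23_P148015 (0.03), GLUL (-0.04) and DKK1 (0.17) without shR-749, for ZNRF3 A_23_P427502 (0.01) without shR-554 and for TBX3 A_23_P383819 (0.0045) with normexp. The 3 past 1.5-fold were LGR5, NKD1 and DKK1 when shR-467 was left out. Without 1 hairpin each, members at 1.5-fold on average numbered 0 to 3, members at 1.5-fold with every remaining hairpin 0 to 2 (LGR5 and NKD1 without shR-467), the members' median -0.39 to -0.14, and limma calls over all probes 0 to 1, the 1 call, REG3A, without shR-554. With normexp and quantile normalization limma made 4 calls beside 0 (ENTHD1, a long intergenic RNA and 2 probes with no gene symbol; no member), at a smallest adjusted p of 0.0273; the cause was not tested. The methods' t-test gave 0 calls after adjustment and 813 before, and limma without the trend 0 and 471. Over the 6 Wnt lists, probes at 1.5-fold on average numbered 10, but 3 with normexp, 5 with low signals raised or with probes well above background on all arrays, 16 without a filter, 17 without shR-467 and 4 at 2-fold, and with every hairpin 4, but 3 with normexp (without TCF7L2), 5 without a filter or without shR-554, 8 without shR-467 and 2 at 2-fold. The blocking of slide and scan was not run, as there was 1 slide and 1 scan. No paired analysis was possible because the mock group holds 1 array. Dim signal limits what can be said of AXIN2 A_24_P298027, TBX3 A_23_P383819, LGR5 and LEF1, whose dimmest arrays lay at 1.01 to 2.02 times the lowest signal well above background.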

Other observations

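The pattern of LGR5, the member with the largest mean difference, was set against 18106 probes with a gene name that were well above background on all 4 arrays. By Euclidean distance over its 3 log2 differences from shR-MOCK, the nearest were KCNQ5, a potassium channel subunit, at 0.12, and ITGAM, an integrin subunit of leucocytes, at 0.13. Both had low signals: KCNQ5 gave 52.0 on the mock array and 60.9, 32.7 and 31.7 with the hairpins in ascending order of target position, and ITGAM gave 80.2, 84.5, 52.6 and 52.3 in the same order. LGR5 shares the arrays, the mock array and a like brightness with them, and the part of brightness in the likeness was not tested.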
